A study of Mus musculus with 4 samples.

Results

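Ion, bicarbonate, sugar, vitamin and zinc transporters of 8 Slc (solute carrier) families were compared between untreated NMuMG cells, an epithelial line from normal mouse mammary gland, and NMuMG cells given 1 ng/ml recombinant human TGF-beta1 for 24 h. Members were the features whose only annotated symbol began with Slc4a, Slc5a, Slc8a, Slc9a, Slc12a, Slc26a, Slc30a or Slc39a followed by digits. This gave 67 of 23332 transcript clusters at gene level, standing for 66 genes (Slc8a1 had a pair of clusters), and 1287 of 229581 probesets at exon level, standing for 69 genes. The rule also took in 3 genes that are not transporters, the exchanger scaffolds Slc9a3r1 and Slc9a3r2 and the nuclear protein Slc4a1ap. Both conditions shared the medium, DMEM with 4.5 g/l glucose, 10% serum and 10 ug/ml insulin. Each condition was 1 Affymetrix array, summarised per gene and per exon part, so no difference below has a replicate check and no p-value was computed. NMuMG is 1 cell line.

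Solute carriers move ions, metals, sugars and vitamins across membranes, mostly driven by the gradients that the sodium pump sets up. Slc4 and Slc9 proteins carry bicarbonate and protons and set cell pH, Slc12 proteins carry chloride with sodium or potassium and set cell volume, Slc26 proteins exchange anions such as sulfate, and Slc5 proteins bring in sugars, iodide and vitamins with sodium. Zinc enters the cytosol through Slc39 (ZIP) proteins and leaves it through Slc30 (ZnT) proteins, and the mammary gland is known for moving much zinc and chloride across its epithelium.

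The sulfate transporter Slc26a2, the zinc importers Slc39a4 and Slc39a10, the multivitamin transporter Slc5a6, the chloride cotransporters Slc12a2 and Slc12a7 and the scaffold Slc9a3r2 were at least 2-fold lower with TGF-beta, and no member was 2-fold higher. The largest positive difference was 0.76 on the log2 scale, in the zinc transporter Slc39a13. A gene was taken as at level if its higher intensity reached the median of all gene-level values (124), and 36 of the 66 genes did. Of these 36, 8 were at least 2-fold lower (22.2%), 28 lay within 2-fold and none was 2-fold higher, while among all 9159 genes at level 8.7% were 2-fold lower and 2.28% 2-fold higher. The eighth lower gene was Slc39a1, whose gene-level value differed from its probesets, as given below. Differences are TGF-beta minus untreated in log2(intensity + 1). Of the 36 members, 26 were below 0, as were 72.3% of all genes at level, and the members' median of −0.37 stood beside −0.27 for all genes at level. The general shift towards lower values was therefore of nearly the members' own size. With both arrays quantile-normalized, 3 of the 36 members were 2-fold lower (4.38% of all genes), namely Slc26a2, Slc39a1 and Slc39a4, and the members' median was −0.06.

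**Figure D1:**
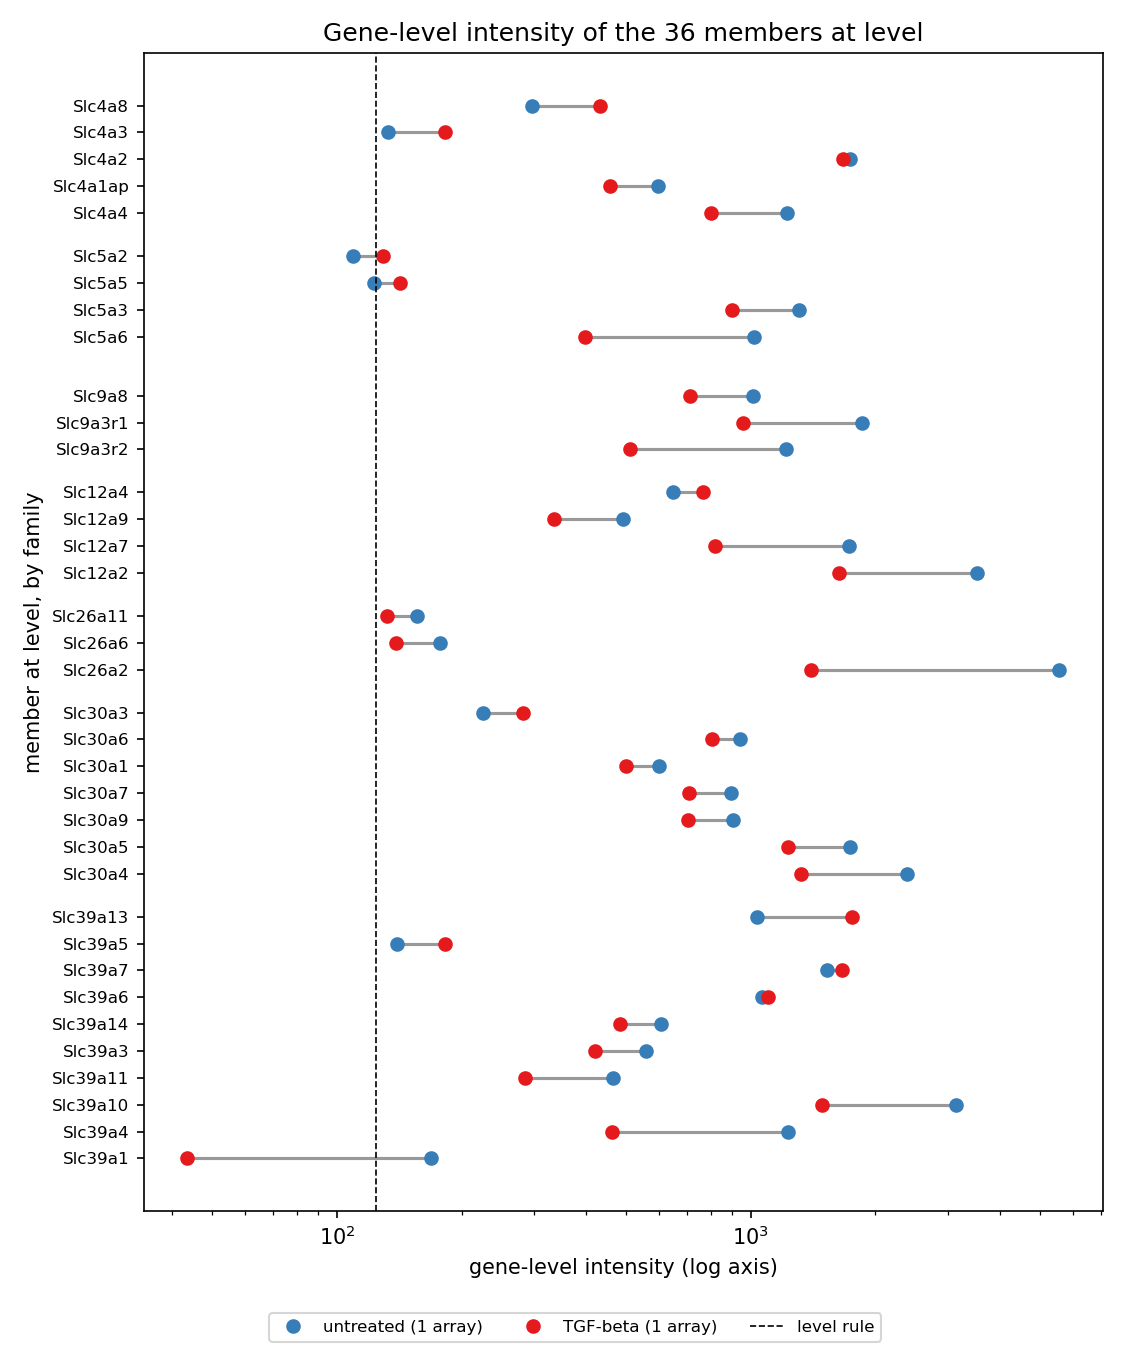
Gene-level intensity (log axis) of the 36 members at level in untreated (blue) and TGF-beta (red) cells, 1 array each, ordered by family. The dashed line is the level rule at 124, and Slc26a2, Slc39a4, Slc5a6, Slc12a2, Slc39a10 and Slc12a7 show the red point well to the left of the blue one.

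**Figure D2:**
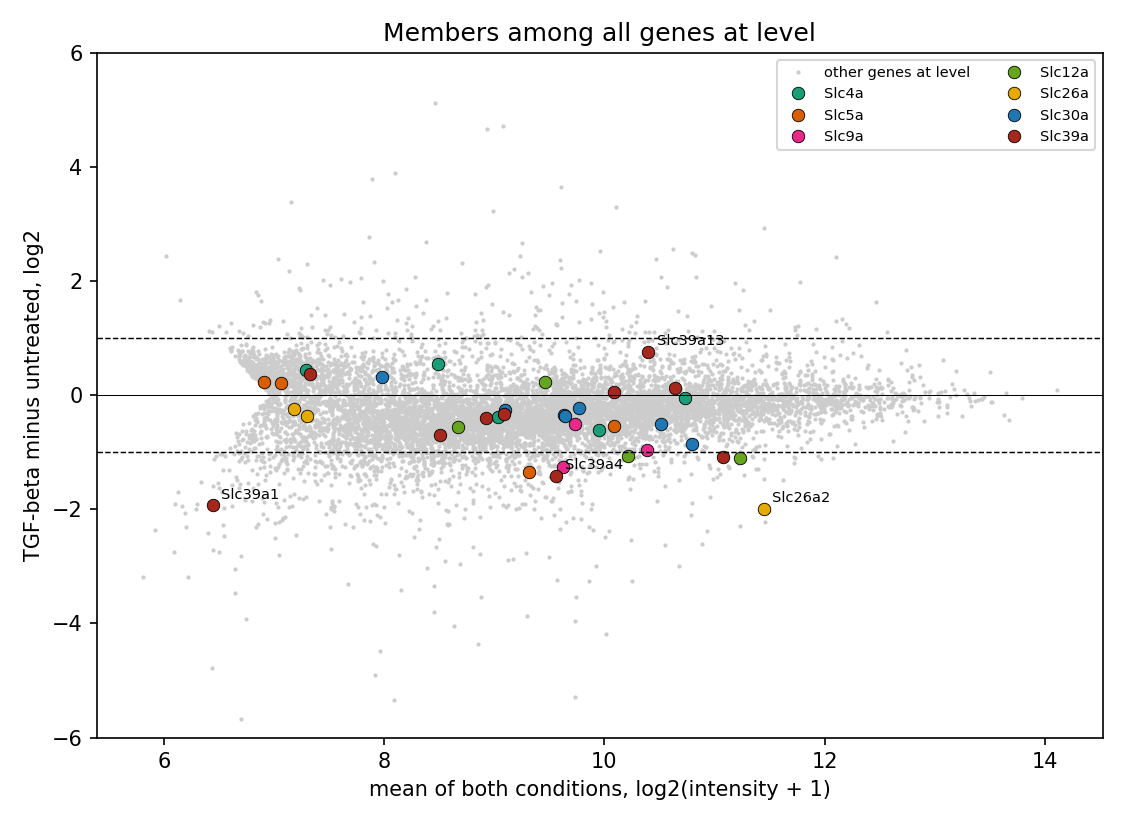
TGF-beta minus untreated (log2) against the mean of both conditions for all 9159 genes at level, with members coloured by family and dashed lines at 2-fold. Most members lie in the body of the grey points, Slc26a2 lies at −1.99, and Slc39a13 at 0.76 is the highest member.

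Stretches of reference promoter are shown for 3 members that were lower together, Slc12a7, Slc5a6 and Slc39a10, and for Slc39a13, the member with the largest positive difference. They come from RefSeq, mouse build GRCm38.p6, and run from 250 bases before to 50 bases after the first listed start. Slc12a7, Slc5a6 and Slc39a10 each had 2 listed starts, and the stretch at their other start is not shown. Capitals mark TGCNCNC or CAGGTG on either strand. TGCNCNC is a loose pattern that takes in the core of the metal response element read by the zinc-sensing factor Mtf1. It also takes in other letters, so a match need not be that element. CAGGTG is the E-box read by Snail and Zeb repressors. The Smad core CAGACA was searched too and found in none of the 4. The Slc12a7 stretch is chr13:73763410-73763709 on the plus strand, and the others are on the minus strand at chr5:31048513-31048812 (Slc5a6), chr1:46925727-46926026 (Slc39a10) and chr2:91070266-91070565 (Slc39a13).
Slc12a7: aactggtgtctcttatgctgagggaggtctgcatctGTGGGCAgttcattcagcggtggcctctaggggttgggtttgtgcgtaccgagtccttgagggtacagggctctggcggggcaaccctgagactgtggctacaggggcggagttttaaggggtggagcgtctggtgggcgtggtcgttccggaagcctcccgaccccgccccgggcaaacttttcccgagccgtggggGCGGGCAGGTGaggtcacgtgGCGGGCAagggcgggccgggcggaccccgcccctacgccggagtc
Slc5a6: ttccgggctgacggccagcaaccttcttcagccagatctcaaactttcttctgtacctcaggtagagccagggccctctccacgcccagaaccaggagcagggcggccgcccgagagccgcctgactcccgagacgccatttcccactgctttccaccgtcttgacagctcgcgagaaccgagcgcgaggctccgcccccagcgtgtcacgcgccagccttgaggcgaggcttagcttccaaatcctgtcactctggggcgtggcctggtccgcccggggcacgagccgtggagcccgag
Slc39a10: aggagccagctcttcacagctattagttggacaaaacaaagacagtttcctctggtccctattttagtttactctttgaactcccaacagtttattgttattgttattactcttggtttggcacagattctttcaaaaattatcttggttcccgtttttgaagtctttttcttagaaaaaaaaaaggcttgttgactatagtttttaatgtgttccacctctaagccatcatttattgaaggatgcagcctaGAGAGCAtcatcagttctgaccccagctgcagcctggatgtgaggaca
Slc39a13: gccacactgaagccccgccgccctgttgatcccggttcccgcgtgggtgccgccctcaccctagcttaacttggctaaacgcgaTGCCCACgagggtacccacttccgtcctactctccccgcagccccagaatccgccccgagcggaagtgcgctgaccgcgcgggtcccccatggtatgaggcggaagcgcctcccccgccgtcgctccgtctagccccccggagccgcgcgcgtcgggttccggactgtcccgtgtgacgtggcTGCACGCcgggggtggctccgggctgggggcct
Slc12a7 held TGCNCNC 3 times and CAGGTG once, with 1 overlap between them, Slc39a10 held TGCNCNC once, Slc39a13 held it 2 times, and Slc5a6 held no searched letters in this window. Among all 32851 promoters of this length in the table, 51% held TGCNCNC, 21% CAGACA and 20.2% CAGGTG. For the 29 members at level with an entry (38 promoters), the shares were 76.3%, 10.5% and 21.1%. All 54 members with an entry (69 promoters) had 68.1%, 15.9% and 31.9%. The 5 members with an entry that were 2-fold lower had only 9 promoters, with 66.7%, 0% and 33.3%. Promoters of the members at level were also richer in G and C, with a median of 65.7% against 52.7% for all promoters. The part of base composition in these shares was not tested. These matches describe letters and show no binding.

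Slc26a2, which brings in sulfate for the sulfation of matrix glycosaminoglycans, had the largest difference of any member. Its gene-level intensity (transcript cluster 6865971) was 5554 without and 1402 with TGF-beta, a difference of −1.99 or 3.96-fold lower. The 4 probesets of the gene were lower by nearly the same amount, from 6503 to 1799.6, from 5431 to 1344, from 3481 to 947 and from 8328 to 2127, with a median of −1.92 ± 0.08 (SD of probesets). The spread between probesets was thus small beside the difference, though it measures parts of 1 transcript and not separate cultures. The other Slc26 anion exchangers at level lay close to the level rule. Slc26a6, a chloride-bicarbonate and oxalate exchanger, had 178 and 138 (−0.36), and Slc26a11 had 156 and 132 (−0.24, or 0.032 after median centring). The remaining 7 Slc26 genes measured at gene level were below the rule in both conditions.

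The Slc12 cotransporters at level went different ways. Slc12a2 (NKCC1), which loads epithelial cells with chloride, had 3516 without and 1632 with TGF-beta, a difference of −1.11. Its 33 probesets were all lower, with a median of −1.10 ± 0.38 (SD). Across the array, 67.4% of all 118109 probesets at level with 1 symbol were lower by any amount. That share stands beside such counts here and below. Slc12a7 (KCC4), which lets potassium and chloride out, had 1724 and 821 (−1.07), with 29 of 30 probesets lower at a median of −0.96 ± 0.47 (SD). Inward and outward chloride carriers were therefore lower side by side. Slc12a4 (KCC1), another potassium-chloride exporter, had 649 and 766 (0.24), with 24 of its 28 probesets higher. Slc12a9, a relative with no settled transport role, had 492 and 334 (−0.55). The kidney cotransporters Slc12a1 and Slc12a3, the neuronal Slc12a5 and Slc12a8 were below the level rule.

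Of genes that act on the Slc12 and other salt carriers, 8 of the 12 listed WNK-pathway genes were measured, and Wnk1, Wnk3, Wnk4 and Klhl3 were not analysed here. Of the 8, 7 were at level, with 1 at least 2-fold higher, 1 at least 2-fold lower and 5 within 2-fold, around a median of −0.34. The shares among all genes at level were 2.28% higher and 8.7% lower. Sgk1, a kinase that favours sodium transport, was higher, with 196 without and 538 with TGF-beta (1.45, 15 probesets at 1.57 ± 0.59 SD). Nedd4l, a ubiquitin ligase that removes sodium channels and cotransporters from the membrane and is itself restrained by Sgk1, was lower, with 1322 and 519.5 (−1.35, 35 probesets at −1.43 ± 0.51 SD). Both stayed past 2-fold after quantile normalization, at 1.78 and −1.02. The kinase Oxsr1, which activates Slc12a2, lay within 2-fold at −0.34. Cul3 and Cab39, the pair with the highest intensities of the list, lay within 2-fold at −0.04 and −0.59.

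The Slc4 bicarbonate carriers at level differed by less than 2-fold in either direction. Among all genes at level, 8.7% were 2-fold lower and 2.28% 2-fold higher, so most genes lay within 2-fold too. Slc4a5 and Slc4a7 were not among the 8 Slc4 symbols that the rule gave. All 5 Slc4 symbols at level lay within 2-fold, with a family median of −0.06, which was 0.11 after quantile normalization. The 5 include Slc4a1ap, which is not a transporter, so this median is not that of the carriers alone. Of the carriers, Slc4a2 and Slc4a4 were below 0 and Slc4a3 and Slc4a8 above 0. Slc4a2 (AE2), the chloride-bicarbonate exchanger of most epithelia, had 1735 and 1670.3 (−0.06, or 0.11 after quantile normalization). Lower by any amount were 16 of its 26 probesets, beside 67.4% of all probesets at level. Slc4a4 (NBCe1), which brings bicarbonate in with sodium, had 1226 and 802 (−0.61), and all 25 of its probesets at level were lower at −0.60 ± 0.29 (SD). Slc4a8 (NDCBE), which trades bicarbonate and sodium for chloride, differed the other way, with 297 and 433 (0.55) and all 21 probesets higher at 0.65 ± 0.33 (SD). For these sodium-coupled bicarbonate importers the probesets of each gene thus lay on 1 side of 0, and the sides were opposite. Slc4a3 (AE3) had 133 and 182 (0.45), near the level rule, with all 12 probesets at level higher. Slc4a1ap had 598 and 457 (−0.39, or 0.017 after quantile normalization).

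Bicarbonate carriers work with carbonic anhydrases, which interconvert carbon dioxide and bicarbonate. Of the 16 listed, 15 were measured and 5 were at level, around a median of −0.20. Of the 5, 1 was 2-fold lower and 4 lay within 2-fold, beside 8.7% lower among all genes at level. Car2, the widespread cytosolic enzyme, had 890.4 without and 201 with TGF-beta, a difference of −2.14 with 9 probesets at −1.87 ± 0.85 (SD), and it was at −1.81 after quantile normalization. Car13, also cytosolic, had 690.1 and 365 (−0.92), whereas the mitochondrial Car5b had 1338 and 1168 (−0.20). Car11 with 118 and 180 (0.60) and Car7 with 109 and 127 (0.21) differed the other way, near the level rule.

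The Slc9 exchangers swap sodium for protons. Among the transporters of this family only Slc9a8 (NHE8) was at level, with 1010.5 and 714 (−0.50) and 24 of 25 probesets lower. Slc9a4, Slc9a7 and Slc9a9 were below the rule, and Slc9a10, listed at exon level only, had no probeset at level. The scaffolds that tie Slc9a3 and other membrane proteins to ezrin differed more than the exchanger. Slc9a3r2 (NHERF2) had 1218 and 510.2 (−1.25), with 12 of 13 probesets lower at −1.27 ± 0.67 (SD). Slc9a3r1 (NHERF1) had 1858 and 959 (−0.95), just inside 2-fold, with 7 of 8 probesets lower at −0.92 ± 0.54 (SD). Ezrin itself (Ezr), which links such scaffolds to actin, had 5260.4 and 1881 (−1.48, 17 probesets at −1.63 ± 0.40 SD). Of the 7 listed exchanger partners, 6 were measured and 5 at level, with a median of −0.55. Ezr was the 1 that was 2-fold lower, beside 8.7% of all genes at level. Chp1, a calcium-binding partner of Slc9 exchangers, had 6365 and 4351 (−0.55).

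Sodium-driven Slc5 carriers had 4 genes at level. Slc5a6, which imports biotin, pantothenate and lipoate, had 1016 without and 398 with TGF-beta, a difference of −1.35. Its 21 probesets at level were all lower, from −2.13 to −0.71, with a median of −1.23 ± 0.40 (SD). Slc5a3, which imports the osmolyte myo-inositol, had 1311 and 903 (−0.54), and all 6 of its probesets were lower. The glucose carrier Slc5a2 (SGLT2) and the iodide carrier Slc5a5 (NIS) lay at the level rule, with 110 and 129 for Slc5a2 and 123 and 142 for Slc5a5. For Slc5a2 the gene level (0.23) and the median of its 4 probesets at level (−0.38 ± 0.42 SD) differed in sign, so it has no settled direction. The other 7 Slc5 genes measured at gene level were below the rule.

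The Slc8 sodium-calcium exchangers were all below the level rule, between 40.7 and 117 for Slc8a1, Slc8a2 and Slc8a3 (the brighter cluster of Slc8a1). Calcium also leaves cells through Atp2b pumps. Of the 4 listed, 3 were measured and 2 at level, and 1 of the 2, Atp2b4, was 2-fold higher, beside 2.28% of all genes at level. Atp2b4 had 250.0 without and 963 with TGF-beta, a difference of 1.94 with 19 probesets at 1.95 ± 0.42 (SD). Atp2b2 had 102 and 153 (0.57). The 10 sodium pump and FXYD genes measured had 6 at level, all within 2-fold with a median of 0.26, among them the pump subunit Atp1b1 (0.16) and the regulator Fxyd5 (0.45). Most genes at level lay within 2-fold, with 8.7% of all 2-fold lower and 2.28% 2-fold higher. All 3 epithelial chloride and sodium channel genes at level of 8 lay within 2-fold, with Ano1 at 3455 and 4866 (0.49) and Clcn2 at 292 and 193.5 (−0.59); Cftr was at 10.9 and 11.8, near the lower end of the scale.

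Zinc importers of the Slc39 family held both the lowest and the highest zinc transporter differences. Of 10 at level, 3 were 2-fold lower, beside 8.7% of all genes at level, and 1 of the 3 was Slc39a1, whose value rests on a dim probeset. The family median of −0.37 became 0.031 after quantile normalization and 0.032 after removal of a curve of difference on level, so its sign follows the scaling. Slc39a4 (ZIP4), the zinc uptake protein of gut lining whose loss in people causes a zinc deficiency disease, had 1232 without and 463 with TGF-beta, a difference of −1.41. Its 17 probesets were all lower, at −1.43 ± 0.57 (SD), and the gene stayed past 2-fold after quantile normalization (−1.07). Slc39a10 (ZIP10), a plasma membrane importer, had 3137 and 1486 (−1.08), with all 13 probesets lower at −1.13 ± 0.35 (SD). Its close relative Slc39a6 (ZIP6), known to pair with Slc39a10, had 1066 and 1103 (0.05), with 6 probesets lower and 6 higher. The 2 partners thus had unlike differences.

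Slc39a13 (ZIP13), which releases zinc from vesicles or the Golgi and is needed for connective tissue, had 1036 and 1760.0 (0.76). All 13 of its probesets were higher, from 0.33 to 0.89, at 0.74 ± 0.17 (SD). Its difference was 0.98 after quantile normalization and 1.00 after removal of a curve of difference on level, so it lay at the 2-fold line under those scalings. Slc39a7 (ZIP7), which releases zinc from the endoplasmic reticulum, had 1527 and 1662 (0.12). The importers Slc39a14 (−0.33), Slc39a3 (−0.41) and Slc39a11 (−0.70) lay within 2-fold. Under quantile normalization Slc39a14 was at 0.062 and Slc39a3 at 0.00062, while Slc39a11 stayed below 0 at −0.28. Slc39a5 (0.38), with 140 and 182, lay near the level rule.

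Slc39a1 (ZIP1), a widely expressed importer, had 168 without and 43.5 with TGF-beta at gene level, a difference of −1.93. Those 2 values were identical to those of 1 of its 5 probesets (4801764), which was below the exon-level rule of 265. Its other 4 probesets had differences of 0.04, −0.06, −0.27 and −0.31, with untreated intensities from 308 to 1166. The gene-level value of Slc39a1 therefore stood for 1 dim probeset, and its other probesets gave no 2-fold difference. Of all 9159 genes at level, 156 (1.70%) had gene-level values exactly equal (tolerance 0) to those of 1 probeset in both conditions, and Slc39a1 was the 1 such gene among the 36 members. Without it, 7 of 35 members were 2-fold lower.

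Zinc exporters of the Slc30 family at level all lay within 2-fold, and 6 of the 7 at level were below 0, with a median of −0.34. Among all genes at level, 72.3% were below 0, 8.7% were 2-fold lower and 2.28% 2-fold higher, with a median of −0.275. The family thus lay close to the whole array. Slc30a4 (ZnT4), whose loss in mice makes milk poor in zinc, had 2380.4 and 1319 (−0.85), with all 13 probesets lower at −0.93 ± 0.33 (SD). Slc30a5 (ZnT5), which loads zinc into the secretory pathway, had 1740 and 1233 (−0.50), and its partner Slc30a6 had 944 and 806 (−0.23). Slc30a1 (ZnT1), the exporter at the plasma membrane, had 599 and 499 (−0.26). Slc30a3 was the member above 0, with 225 and 281 (0.32). After quantile normalization the Slc30 median was −0.01, and Slc30a1 (0.13) and Slc30a6 (0.07) were above 0, so the sign of these small differences follows the scaling. The zinc-binding metallothioneins and their inducer Mtf1, all 5 at level, lay within 2-fold as well, with a median of −0.30; Mt1 had 6701 and 3691 (−0.86), Mt2 had 7229 and 5759 (−0.33) and Mtf1 was at −0.30.

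**Figure D3:**
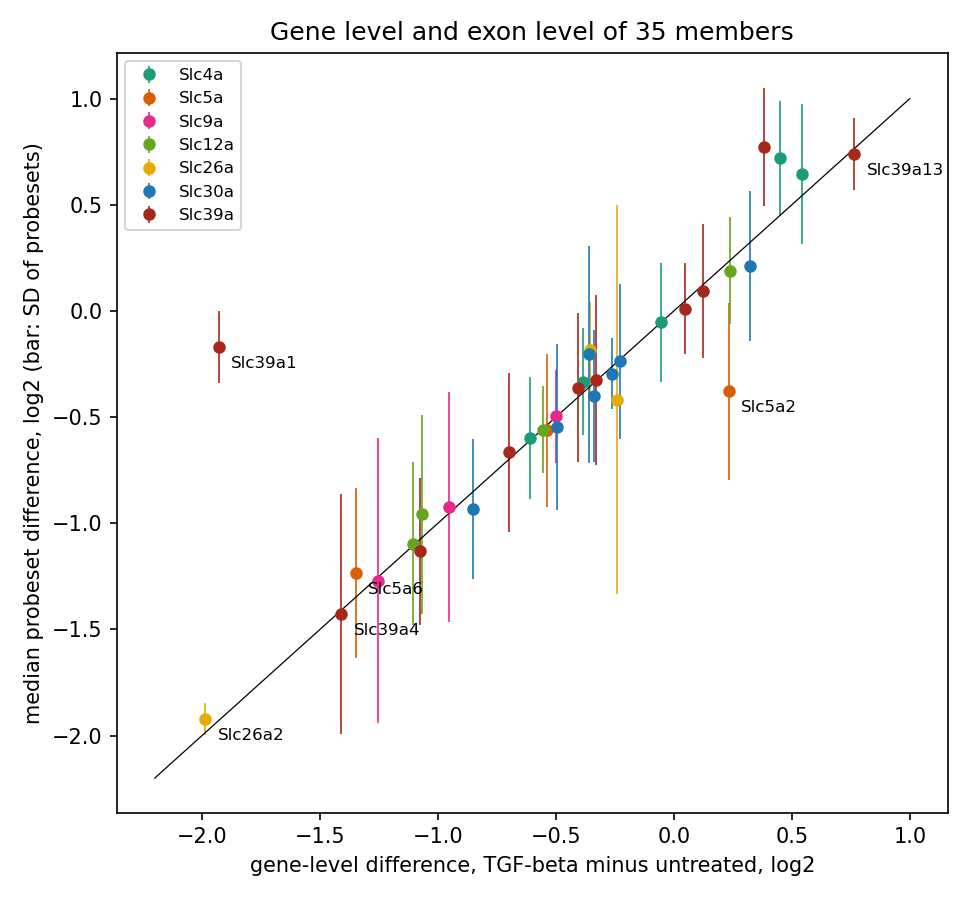
Median difference of the probesets at level (bar, SD of probesets) against the gene-level difference for the 35 members with at least 3 probesets at level, coloured by family; the line marks equality. Slc39a1 lies at −1.93 and −0.17, far from the line, and Slc5a2 is the member whose 2 values differ in sign.

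At exon level, 555 of the 1287 member probesets were at level, which meant an intensity of at least 265 in 1 of the conditions. Of these, 111 (20.0%) were 2-fold lower and 17 (3.06%) 2-fold higher, against 11.6% and 3.55% of all 118109 probesets at level with 1 symbol. Lower by any amount were 375 member probesets (67.6%), against 67.4% of all. By family, 17 of 41 Slc5 probesets were 2-fold lower (41.5%), as were 34 of 113 in Slc12 (30.1%), 14 of 52 in Slc9 (26.9%), 26 of 111 in Slc39 (23.4%), 6 of 33 in Slc26 (18.2%), 10 of 96 in Slc30 (10.4%) and 4 of 104 in Slc4 (3.85%). Probesets of 1 gene share its transcript, so Slc5a6 alone gave 16 of the 17 in Slc5, and Slc12a2 and Slc12a7 gave 19 and 14 of the 34 in Slc12. Of the 17 that were 2-fold higher, 3 each belonged to Slc4a8 and Slc12a5. Of 35 members with at least 3 probesets at level, 34 had a probeset median on the same side of 0 as the gene level, and 31 had a median within 0.2 of it. Among them, 6 were 2-fold lower at both levels; Slc12a7 (−0.96) and Slc39a1 (−0.17) were not at the probeset median.

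**Figure D4:**
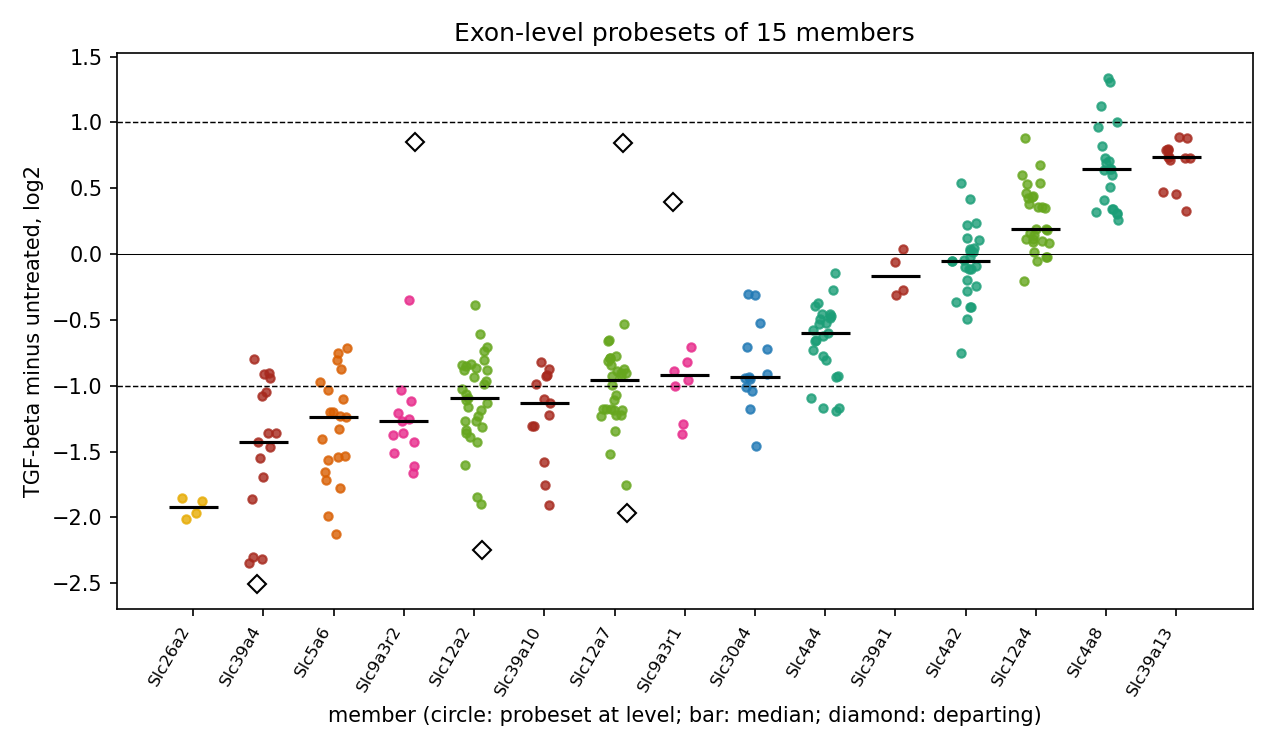
TGF-beta minus untreated (log2) of every probeset at level (circles, coloured by family) of 15 members, with the median as a bar and probesets that depart by at least 1 from the rest of their gene as open diamonds. Slc26a2 is the tightest of the 2-fold lower genes, and Slc12a7, Slc9a3r2 and Slc9a3r1 each show 1 diamond above 0.

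A probeset departed when its difference lay at least 1 away from the median of the other probesets of its gene, in genes with at least 5 at level. This held for 14 of 506 member probesets (2.77%), against 3.64% of all such probesets, a share close to that of the whole array. The largest was in Slc9a3r2, where probeset 4775241 had 393 without and 708 with TGF-beta (0.85) while the others had a median of −1.32. In Slc12a7, probeset 5332501 had 945 and 1699.7 (0.85) against −0.99 for the others, the only 1 of its 30 that was higher. In Slc9a3r1, probeset 5409848 had 649 and 852 (0.39) against −0.95. In all 3 genes, 1 probeset was thus higher with TGF-beta while the remainder of the gene was lower, and these probesets had values above the level rule in both conditions. Slc30a5 had a like probeset, 4693821, with 738 and 1024 (0.47) against −0.57.

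Departures towards lower values were those of Slc12a2 (4930229; −2.25 against −1.08), Slc39a4 (5314978; −2.50 against −1.39), Slc30a9 (4931244; −1.26 against −0.16) and Slc12a7 (5250393; −1.96 against −0.92). In each of them the TGF-beta intensity was below 265, so their size is uncertain. Slc26a11 gave 4 departures from only 5 probesets at level, spread from −1.41 to 0.76, and Slc5a11 (5324657; −0.66) and Slc12a5 (4386429; 1.96) gave 1 each in genes below the gene-level rule. The probesets carried no position here, so which exon each covers is not given.

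**Figure D5:**
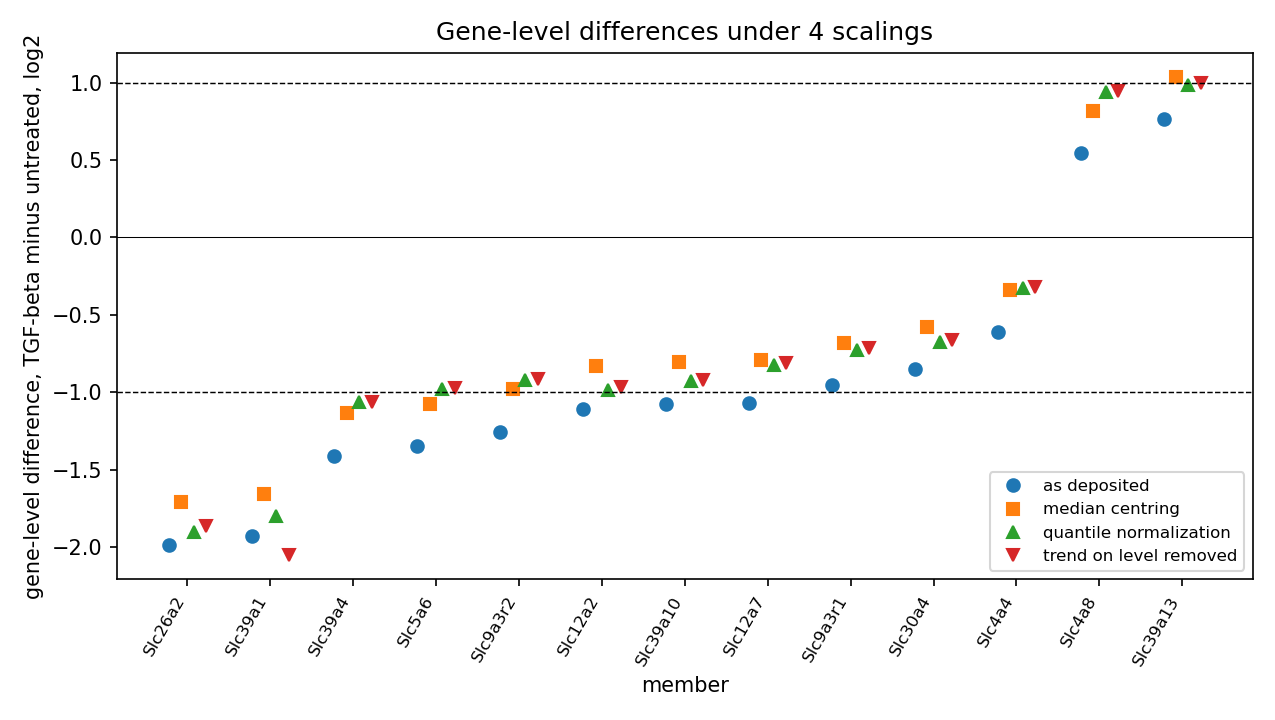
Gene-level difference of 13 members under 4 scalings of the arrays, as deposited, centred on the median of features at level, quantile-normalized, and less a curve of difference on level; dashed lines mark 2-fold. Slc26a2, Slc39a1 and Slc39a4 stay below −1 under all 4, and the other 5 that were 2-fold lower as deposited cross the line under at least 1.

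The 30 members below the level rule at gene level had intensities from 15.1 to 117, where signal could not be told from background without a detection value. The gut and inner ear anion exchangers Slc26a3, Slc26a4 and Slc26a5, the glucose carrier Slc5a1 and the insulin granule zinc transporter Slc30a8 were among them. Slc9a9 was the member of this group with the largest gap, with 87.4 and 48.4. Slc26a1, Slc5a4a and Slc9a10 were read at exon level only, where Slc26a1 had 1 probeset at level (1.34) and the others none.

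Epithelial markers were checked beside these results. Of 8 listed, 6 were measured and 4 at level, and the 6 summed to 18832 without and 12898 with TGF-beta. Krt18 (8494 and 9785), Krt19 (4612 and 578) and Cdh1 (4153 and 1698) were high in untreated cells. Epcam (68.5 and 62.2) and Cldn7 (88.1 and 92.7) were below the level rule. Of 16 listed fibroblast, immune, endothelial and adipocyte genes, 4 were at level, and none of the markers was listed at 0. The 4 were Col1a1 (199 and 389), Col1a2 (127 and 200), Cd68 (317 and 190) and Plin1 (156 and 259), so no endothelial gene was at level. Summed, the fibroblast list had 515 and 848, the immune list 475 and 411, the endothelial list 139 and 205 and the adipocyte list 187 and 300.3. These sums take in genes below the level rule, where signal could not be told from background. The part of these marker differences in the transporter differences was not tested. In bulk RNA, fewer cells of a type and less RNA per cell cannot be told apart.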

How the data were processed

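RNA of NMuMG cells was measured on Affymetrix arrays, with biotin-labelled total RNA per the labels' protocols. The authors deposited intensities on a linear scale, summarised per transcript cluster (gene level) and per probeset (exon level); how they corrected, normalized and summarised the signal, and on which build, is not given in the sources used here. Gene-level intensities ran from 3.76 to 18284, with medians of 130.1 (untreated) and 120.1 (TGF-beta); exon-level medians were 297 and 239.5. The 4 columns came from 2 conditions, so the gene and exon levels were never taken as replicates.

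Symbols came from the platform annotation; 14996 of 23332 clusters and 209279 of 229581 probesets had 1 symbol. Members kept the annotation's symbol, and others were updated through RefSeq (GRCm38.p6). Values were taken as log2(intensity + 1). Where a symbol had several clusters, that with the highest mean was used. Fold limits were 2-fold in size. Named were all members past 2-fold, those nearest to it, 2 bright members per family, departing members, members whose levels disagreed in sign, and partner genes past 2-fold or bright; some others at level were named after their values were seen. The members and lists, and the CAGGTG motif, were chosen with earlier results of these data known. The calling code was run on simulated data with large planted differences, little noise and no array-wide shift. That run concerns the code and says nothing on the calls made here. Alternatives were other level, size and index rules, another pseudocount, 3 scalings (centring, quantile normalization and a lowess trend with fraction 0.3), probeset medians, and leaving out genes that are not transporters or Slc39a1. Python 3.11.15, numpy 2.4.6, pandas 2.3.3 and statsmodels 0.14.6 were used. With 1 array per condition, precision is limited by the number of arrays.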

Additional observations from a re-analysis of the deposited data

How the results depend on the processing

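No paired analysis was possible because each condition had 1 array and the labels carry no replicate numbers. The 8 genes that were 2-fold lower were the same with no level rule (of 66, 5.81% of all genes), a pseudocount of 16 (of 36, 7.62%) or the mean of clusters (of 36, 8.69%). All but Slc39a1 remained with the level rule on the mean (7 of 34, 8.53%), on both intensities (7 of 33, 7.15%) or at the 75th percentile (7 of 21, 7.4%). A level rule sets which genes are counted and leaves their differences unchanged. At the median of probesets, 6 of the 8 remained. Scaling changed the count most: 4 were lower after median centring (4.38% of all genes), 3 under quantile normalization (4.38%) and 3 once the trend was removed (4.77%), with 1 higher after centring and 1 after removal of the trend (Slc39a13). The all-gene shares of higher genes were 4.07% and 3.61%. By probeset medians 4 of 61 were higher (Slc4a1, Slc12a8, Slc26a1 and Slc26a5, on 1 or 2 probesets each; 4.61% of all genes) and 6 lower (7.09%). At 1.5-fold, 1 of 36 was higher (6.25% of all genes) and 12 lower (25.3%). The members' median of −0.37 was 0.069 with no level rule (−0.062 for all genes) and 0.021 by probeset medians (−0.13), where dim members enter.

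Percentages in this paragraph are the shares of all probesets under the same setting. Of 555 member probesets, the 111 that were lower (11.6%) became 62 under centring (6.99%), 70 of 564 under quantile normalization (6.16%), 68 under trend removal (6.6%) and 224 at 1.5-fold (27.4%). The 17 that were higher (3.55%) became 38 (6.25%), 49 (6.83%) and 46 (6.49%) under the same scalings, 67 at 1.5-fold (9.49%), 65 of 1287 with no level rule (5.44%), 10 of 475 with both intensities at level (2.5%) and 7 of 300 at the 75th percentile (3.46%). The 14 of 506 departing probesets (3.64%) became 101 of 1279 with no level rule (8.14%), 4 of 428 with both intensities at level (1.44%), 3 of 272 at the 75th percentile (1.15%), 9 of 456 with at least 8 probesets (3.34%) and 1 at an index of 2 (0.317%). Of the 36 members, 8 changed sign under a scaling or by probeset medians (Slc4a1ap, Slc4a2, Slc5a2, Slc26a11, Slc30a1, Slc30a6, Slc39a3 and Slc39a14). None of these was among the 8 that were 2-fold lower, whose size left little room for a sign change under a scaling. Of 180 values of single members under the 5 alternatives that could alter them, 41 moved by more than the SD of the member's probesets. The choice to leave out Slc39a1 was made after seeing the data. Differences of features below the level rule in 1 condition have an uncertain size.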
